A study of Mus musculus with 4 samples.

Results

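A set of 9 blood-vessel genes was followed in sorted tumour-associated macrophages (TAMs), and 7 of them had enough counts to be tested. The genes were Kdr, Flt1, Tie1, Tek, Cdh5, Pecam1, Eng, Emcn and Cd34, the 9 rows among the 54146 listed genes whose Ensembl identifiers carry these symbols in GENCODE M21. All 9 were detected in all 4 libraries. After propranolol Cdh5 rose and Cd34 fell, where a gene rose or fell at more than 1.5-fold and an adjusted p below 0.05 in edgeR. Neither call held under every alternative: Cdh5 was not called in 7 of 12, and after a correction for GC content neither gene was called. These 2 are 28.6% of the 7 tested, and 27.8% of all 14688 tested genes passed the same threshold. Eng, which gave most of the signal of the set, was 0.49 higher on the log2 scale, or 0.16 after that correction. Of 26 further endothelial markers, 11 were below 1 CPM (count scaled by library size) in every library.

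RNA was sequenced from TAMs of female C57BL/6 mice aged 8 to 16 weeks that had been inoculated s.c. with MCA205 cells, a murine fibrosarcoma line. Propranolol, a nonselective blocker of beta-adrenergic receptors, was given at 0.5 g/L in the drinking water from the day of inoculation, and control mice received vehicle. Each group had 2 libraries, of 13798249 and 23018142 counted fragments in the control group and 39818103 and 16424081 in the propranolol group. Leukocytes were enriched with CD45 beads and live CD11b+ F4/80+ cells were then sorted by FACS. How many mice contributed to each library is not given in the sources used here, so p-values measure the spread between these libraries. With bulk RNA, fewer cells of a type and less RNA per cell cannot be told apart.

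Endothelial cells line blood vessels and respond to vascular endothelial growth factor A (VEGFA) mainly through VEGFR2, the product of Kdr. VEGFR1, encoded by Flt1, binds the same ligand and limits its access to VEGFR2, and TIE2, encoded by Tek, receives the angiopoietins together with its partner TIE1. VE-cadherin, encoded by Cdh5, and CD31, encoded by Pecam1, hold neighbouring endothelial cells together. Endoglin, encoded by Eng, is a coreceptor of the TGF-beta family. Several of these genes are not exclusive to the endothelium. Pecam1, Eng and Flt1 are also expressed by monocytes and macrophages, Tek by a subset of perivascular macrophages, and Cd34 by progenitors, mast cells and some fibroblasts.

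The study also measured Kdr by qRT-PCR, in RNA from whole tumours and not from sorted TAMs. Its primers are shown to place that amplicon within the counted exons.
Kdr forward primer: ttgtgaatgtcccaccccag
Kdr reverse primer: ttggcgtagactgtgcatgt
On GRCm38 the forward primer spans the junction of exons 9 and 10 (chr5:75962856-75964583, including the intron) and the reverse primer lies in exon 10 (chr5:75962773-75962792), of 30 exons in the gene. The 103-base product is coding sequence and is present in 3 of the 3 annotated Kdr transcripts that were searched. Fragments over that product entered the Kdr count.

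The upstream sequences of Kdr, Flt1 and Cd34 are shown because Kdr and Flt1 encode receptors of the same ligand but had log2 fold changes of opposite sign, neither past the test, and Cd34 fell. Each run holds the 250 bases upstream of the start site in RefSeq (GRCm38.p6), 5′ to 3′ on the strand of the gene. Capitals mark GGAA, the core bound by ETS factors, or its reverse complement TTCC.
Kdr (chr5:75978456-75978705, minus strand): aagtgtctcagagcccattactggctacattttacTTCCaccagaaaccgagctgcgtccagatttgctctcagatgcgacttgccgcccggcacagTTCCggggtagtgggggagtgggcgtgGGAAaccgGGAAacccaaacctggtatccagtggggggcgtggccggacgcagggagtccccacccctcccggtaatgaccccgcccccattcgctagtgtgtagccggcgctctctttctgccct
Flt1 (chr5:147726012-147726261, minus strand): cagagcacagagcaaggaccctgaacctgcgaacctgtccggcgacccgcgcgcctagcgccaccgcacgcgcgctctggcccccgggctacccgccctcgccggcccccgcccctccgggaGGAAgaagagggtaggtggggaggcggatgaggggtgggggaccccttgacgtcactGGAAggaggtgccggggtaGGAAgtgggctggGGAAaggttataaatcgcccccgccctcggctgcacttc
Cd34 (chr1:194938571-194938820, plus strand): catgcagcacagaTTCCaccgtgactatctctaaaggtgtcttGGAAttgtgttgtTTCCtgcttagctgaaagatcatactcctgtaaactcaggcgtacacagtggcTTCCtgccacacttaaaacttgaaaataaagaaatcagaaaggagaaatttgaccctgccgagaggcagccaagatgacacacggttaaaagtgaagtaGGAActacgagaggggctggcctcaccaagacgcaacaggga
Kdr and Flt1 each held 4 cores and Cd34 held 5, against a median of 3 over 32851 windows of the same length, of which 93.4% held at least 1. The cores therefore do not set these genes apart. The windows differed more in CG dinucleotides, with 16 upstream of Kdr, 23 upstream of Flt1 and 6 upstream of Cd34, against a median of 6. RefSeq windows were matched to 7 of the 9 members, and the set of windows used here held none for Cdh5 and Pecam1.

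The members covered a wide range of levels. In TPM, which corrects the count for exon length and library size, Eng was highest in control TAMs at 97.6 ± 10.4 (SD, n = 2), followed by Pecam1 at 17.1 ± 0.376. Flt1 at 4.38 ± 1.40, Cd34 at 4.12 ± 1.5 and Cdh5 at 3.39 ± 0.550 came next and overlapped between libraries. Kdr was at 1.79 ± 0.0659 TPM and Tie1 at 0.726 ± 0.370. Tek at 0.367 ± 0.0764 and Emcn at 0.343 ± 0.380 were lowest and overlapped each other. In propranolol TAMs Eng (116 ± 0.404 TPM) and Pecam1 (17 ± 1.39) again led. Cdh5 then followed at 4.87 ± 0.198 TPM, ahead of Flt1 at 2.66 ± 1.28 and Kdr at 2.34 ± 0.278, which overlapped. Cd34 was at 1.48 ± 0.519 TPM and overlapped Tie1 at 1.25 ± 0.660, and Emcn (0.133 ± 0.00903) and Tek (0.108 ± 0.0163) were again at the bottom. The middle of this order depended on the length used. With the longest transcript in place of all exons, Cd34 in control TAMs was at 7.61 TPM, above Flt1 at 6.66 and Cdh5 at 2.77, and in propranolol TAMs Flt1 at 4.01 and Cdh5 at 3.95 changed places.

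**Figure D1:**
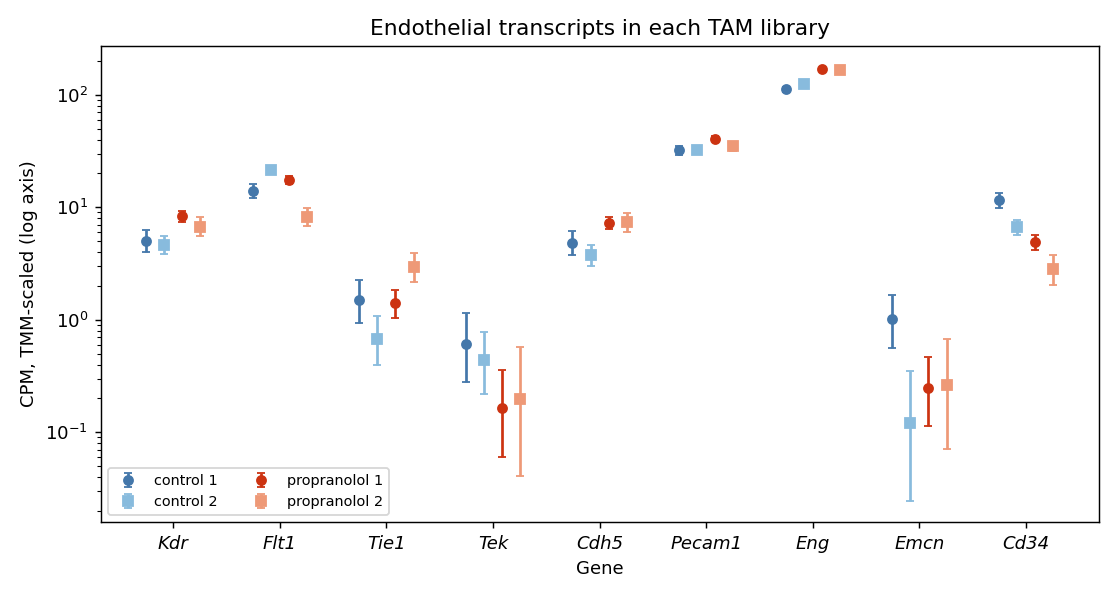
CPM (counts scaled by library size with TMM, log axis) of the 9 endothelial transcripts in each library, with points for control 1 and 2 and propranolol 1 and 2 and bars for the exact 95% Poisson interval, which covers counting error only. Eng lies above 100 CPM in every library, whereas Tek and Emcn lie near or below 1 CPM with wide intervals.

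The first members compared were the VEGF receptors, in CPM, the count scaled by library size with the TMM method. Kdr (chr5:75932827-75978458, minus strand) had 5.06 and 4.66 CPM in control TAMs against 8.31 and 6.75 CPM in propranolol TAMs, from 75, 117, 302 and 103 fragments. Both propranolol libraries were above both control libraries. The log2 fold change was 0.64 ± 0.25 (SE), with an adjusted p of 0.0607 in edgeR, so Kdr did not pass the test. Across alternatives its adjusted p ranged from 0.0425 to 0.301, and it passed in 5 of 12, among them edgeR without propranolol replicate 2 (log2 fold change 0.81, adjusted p = 0.0492).

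Flt1 (chr5:147561604-147726011, minus strand) had 14.0 and 21.5 CPM in control TAMs against 17.4 and 8.25 CPM in propranolol TAMs. The groups overlapped, and the lowest value belonged to propranolol replicate 2. The log2 fold change was −0.44 ± 0.31 with an adjusted p of 0.281 in edgeR. It depended on single libraries, since edgeR gave −0.01 when propranolol replicate 2 was omitted and −0.07 when control replicate 2 was. Omitting propranolol replicate 1 gave −1.11 and omitting control replicate 1 gave −0.65, and both of these passed the test.

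The angiopoietin receptors were scarce. Tek (chr4:94739289-94874976, plus strand) had 9 and 11 fragments in control TAMs against 6 and 3 in propranolol TAMs, or 0.607, 0.438, 0.165 and 0.196 CPM. Both propranolol values were below both control values, but Tek was under the count minimum and was not in the comparison of 14688 genes. In the 5 edgeR alternatives that admitted it, its log2 fold change was −1.73 to −1.23 and did not pass (adjusted p = 0.369 to 0.574). Tie1 (chr4:118471191-118490061, minus strand) had 1.48 and 0.678 CPM in control TAMs against 1.40 and 2.95 CPM in propranolol TAMs, so the groups overlapped. Its log2 fold change was 1.01 ± 0.58, the adjusted p was 0.182 in edgeR, and it passed only when control replicate 1 was left out (1.69, adjusted p = 0.0457, the lowest of a range up to 0.672 over its alternatives).

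Of the junction genes, Cdh5 rose. Cdh5 (chr8:104101625-104144511, plus strand) had 4.86 and 3.75 CPM in control TAMs against 7.21 and 7.33 CPM in propranolol TAMs, from 72, 94, 262 and 112 fragments. The propranolol libraries were both higher than the control libraries, by 0.77 ± 0.26 on the log2 scale (adjusted p = 0.0374 in edgeR). The call was near the threshold, with adjusted p from 0.0105 to 0.144 over the alternatives. It was lost in 7 of 12, among them edgeR without control replicate 2 (0.60), propranolol replicate 1 (0.78) or propranolol replicate 2 (0.78), in DESeq2 (0.79, adjusted p = 0.0658) and after a correction that removes the trend of each library with the GC content of genes (0.61, adjusted p = 0.116).

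Pecam1 (chr11:106654217-106750628, minus strand) had 32.1 and 32.2 CPM in control TAMs against 40.6 and 34.8 CPM in propranolol TAMs. The groups did not overlap, but the log2 fold change was only 0.24 ± 0.13 and did not pass the test (adjusted p = 0.168 in edgeR). When raw library totals replaced the TMM scaling, it was 0.00.

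Eng (chr2:32646595-32682669, plus strand) had 112 and 126 CPM in control TAMs against 170 and 165 CPM in propranolol TAMs, from 1656, 3164, 6198 and 2514 fragments. It was higher in both propranolol libraries, and its log2 fold change of 0.49 ± 0.10 was well resolved (adjusted p = 0.0038 in edgeR) but under the fold threshold. It exceeded that threshold only without control replicate 2 (0.60). The GC content of its exons was 57.4%, and the 1083 tested genes within 1 percentage point of it showed a median of 0.47 on the log2 scale. After the GC correction the difference in Eng was 0.16 (adjusted p = 0.285 in edgeR, the highest over its alternatives, of which the lowest was 7.93e-06). In the annotation 61 of its 4048 exonic bases are shared with Fpgs on the other strand.

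The sialomucin genes were Cd34 and Emcn, which encodes endomucin of venous and capillary endothelium. Cd34 (chr1:194938819-194961279, plus strand) had 11.5 and 6.62 CPM in control TAMs against 4.87 and 2.82 CPM in propranolol TAMs, from 171, 166, 177 and 43 fragments. Both propranolol libraries were below both control libraries, and the fall of 1.19 ± 0.34 on the log2 scale passed the test (log2 fold change −1.19, adjusted p = 0.0191 in edgeR). Control replicate 1 was the highest, and without it the log2 fold change was −0.69 with an adjusted p of 0.106. The GC correction moved it to −0.63 (adjusted p = 0.199, the highest over its alternatives, which reached down to 6.66e-06). The 1182 tested genes of like GC content, around the 42.8% of Cd34, showed a median of −0.56 on the log2 scale. Emcn (chr3:137341067-137432185, plus strand) had 15, 3, 9 and 4 fragments, or 1.01, 0.120, 0.248 and 0.262 CPM. Control replicate 1 was the highest here too, the groups overlapped, and Emcn was also under the count minimum. In the 4 edgeR alternatives that admitted it, its log2 fold change was −1.96 to −0.98 and did not pass (adjusted p = 0.203 to 0.652).

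Marker genes of other cells were also lower in both propranolol libraries. The 12 genes of the fibroblast and sarcoma list summed to 3625 and 1379 CPM in control TAMs against 779 and 824 CPM in propranolol TAMs. Control replicate 1 was highest, as for Cd34. The order of the propranolol libraries differed, since Cd34 had 4.87 CPM in replicate 1 and 2.82 CPM in replicate 2. None of the 12 was at 0, and 11 of the 12 fell. The most abundant was Col3a1, a fibrillar collagen, at 1294, 423, 212 and 225 CPM. Col1a1, of type I collagen, fell by 1.29 ± 0.30 and Postn, the matrix gene periostin, by 2.54 ± 0.41 on the log2 scale. When control replicate 1 was omitted Col1a1 was at −0.46, under the fold threshold, and DESeq2 did not call it (adjusted p = 0.0847, at −1.27). Postn was not called with the GC correction (−1.21, adjusted p = 0.0581 in edgeR). Without control replicate 1, 7 of the 12 fell, as did 8 with the GC correction and 7 in DESeq2. The part of these cells in the Cd34 result was not tested.

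Read against the whole table, the set did not stand out in its number of calls. One member was called in each direction, whereas 12.2% of all tested genes were higher and 15.6% lower. At any fold 3 members had an adjusted p below 0.05, against 42.2% of all tested genes. The groups did not overlap for 5 of the 7, or 71.4%, against 72.6% of all tested genes (35.8% higher and 36.9% lower). The median log2 fold change was 0.49 over the 7 and −0.02 over all genes, with 5 above 0 and 2 below. The members' median was 0.12 without propranolol replicate 1, 0.25 without control replicate 2, 0.22 with the GC correction and 0.26 in DESeq2 and with raw library totals, over the members each fit tested. After the GC correction no tested member was called by edgeR (2 of the 7 had an unadjusted p below 0.05), against 12.6% of all genes (7.64% higher, 4.97% lower). DESeq2 called Cd34 alone, against 26.5% of its 14056 genes (13.1% higher, 13.4% lower).

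**Figure D2:**
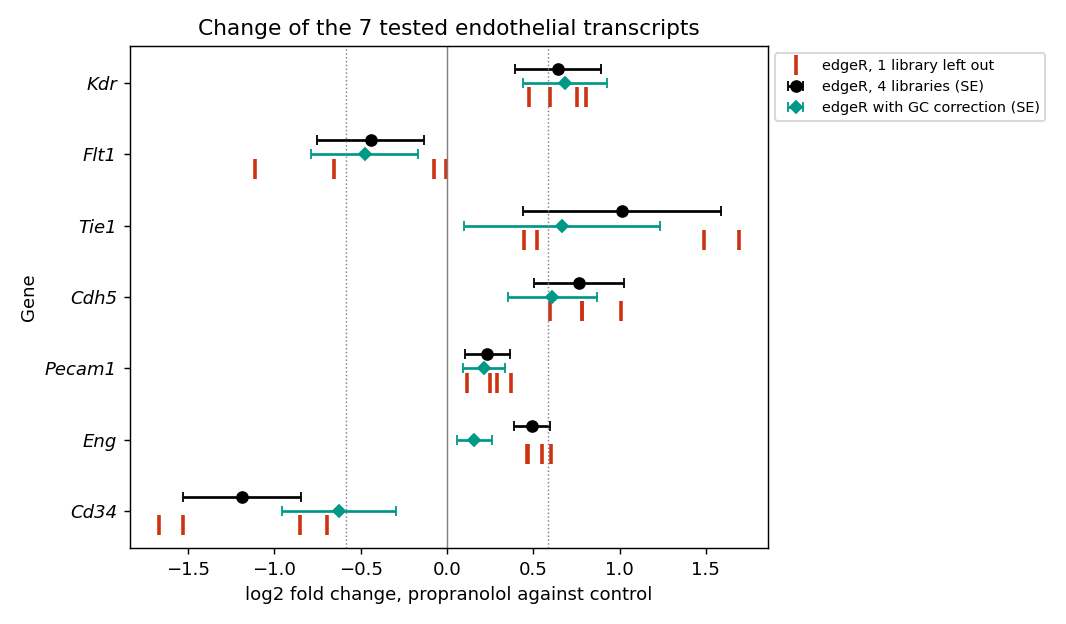
Log2 fold change of the 7 tested members, propranolol against control, from edgeR with 4 libraries (black circles, bars are SE), edgeR with GC correction (green diamonds, bars are SE) and edgeR with 1 library left out (red ticks). Dotted lines mark 1.5-fold in either direction. The Flt1 ticks run from −1.11 to −0.01, and the GC correction moves Eng from 0.49 to 0.16 and Cd34 from −1.19 to −0.63.

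Ratios within a library do not depend on its scaling, but a trend with GC content does not cancel between genes of unlike GC content. Tested genes of like GC content had a median log2 fold change of −0.56 for Cd34 and 0.26 for Cdh5. The ratios were not corrected for this trend. Kdr to Cdh5, on the TPM scale, was 0.485 and 0.579 in control TAMs against 0.537 and 0.428 in propranolol TAMs, so the groups overlapped. Eng to Cdh5 was 23.9, 34.9, 24.6 and 23.3 in the same order and also overlapped. Pecam1 to Cdh5 was 4.46 and 5.79 in the control libraries against 3.80 and 3.20, which did not overlap.

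The groups did not overlap in the next 3 pairs either. Flt1 to Kdr was 1.85 and 3.09 in control TAMs against 1.40 and 0.818 in propranolol TAMs, where both were lower. Cd34 to Cdh5 was 1.37 and 1.02 against 0.389 and 0.221. That separation repeats the calls of Cd34, lower in both propranolol libraries, and Cdh5, higher in both. Tie1 to Tek was 2.34 and 1.48 against 8.15 and 14.4, higher in both propranolol libraries, but rested on 3 to 11 Tek fragments a library. Emcn to Cdh5, at 0.162, 0.0248, 0.0267 and 0.0278, overlapped. Separation was also seen in pairs where only the second gene was a member. Lyz2 to Kdr (7990 and 7689 against 6253 and 6064) and Lyz2 to Cdh5 (3874 and 4454 against 3355 and 2596) did not overlap. Cldn5 to Cdh5 (0.577 and 0.632 against 0.193 and 0.557) did not overlap either. Kdr and Cdh5 were themselves higher in both propranolol libraries, and no share over all gene pairs was computed. These ratios are descriptions, with no test. Another exon length multiplies a ratio by the same factor in every library, and with the longest transcript Cd34 to Cdh5 was 3.10, 2.30, 0.881 and 0.501. The 9 members summed to 182 and 196 CPM in control TAMs against 251 and 228 CPM in propranolol TAMs. Eng made up 61.3% to 72.2% and Pecam1 15.3% to 17.6% of that sum. Without these 2 genes the sums were 38.5, 37.8, 39.6 and 28.6 CPM, with propranolol replicate 2 lowest.

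**Figure D3:**
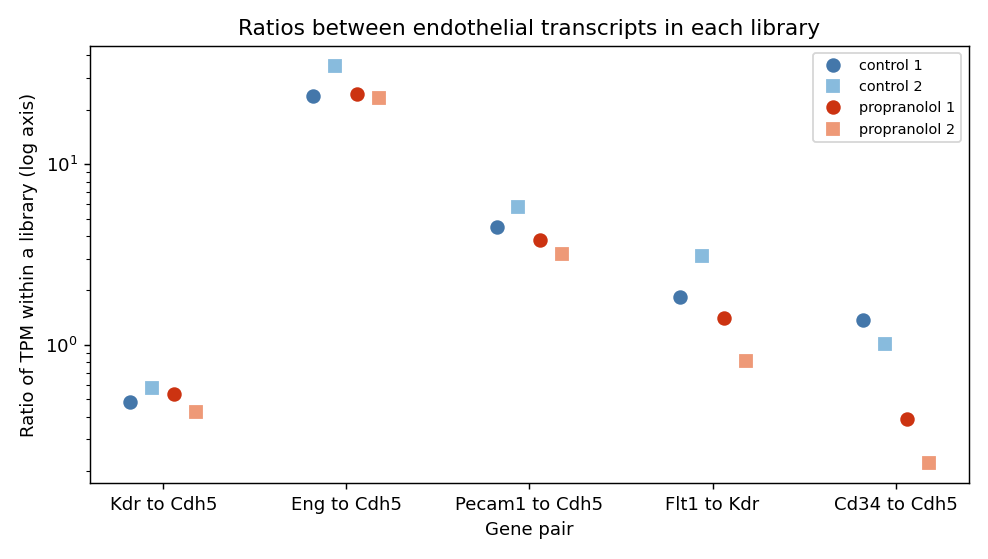
Ratio of TPM between pairs of endothelial transcripts within each library (log axis), with points for control 1 and 2 and propranolol 1 and 2. Kdr to Cdh5 lies between 0.428 and 0.579 in all 4 libraries. Cd34 to Cdh5 is 1.37 and 1.02 for the control points against 0.389 and 0.221 for the propranolol points. The latter separation follows from the opposite directions of Cd34 and Cdh5. Levels use union exon length, and another length shifts a pair by the same factor in every library.

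To see how much endothelial RNA each library held, 26 further endothelial markers were examined. Their sum was 623 and 543 CPM in control TAMs against 575 and 550 CPM in propranolol TAMs. Cd93, a lectin-like receptor of myeloid and endothelial cells, supplied most of it, with 586, 514, 543 and 510 CPM. Without Cd93, a choice made after its values were seen, the other 25 summed to 37.0, 29.4, 31.9 and 39.4 CPM, and the groups overlapped. Their most abundant gene was Icam2, which leukocytes share. With Icam2 left out as well, the sums were 27.8, 20.9, 18.4 and 27.9 CPM and again overlapped. Beside these markers Lyz2, the lysozyme of macrophages, had 5889, 5226, 7569 and 5961 CPM.

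Clec14a, a C-type lectin of endothelial cells, had no fragment in any library, where 3 counts allow up to 0.202, 0.120, 0.0825 and 0.196 CPM. In all 11 of the 26 were below 1 CPM in every library, including Sox7, Sox17 and Sox18, factors of endothelial identity, and Nos3, the endothelial nitric oxide synthase. The tight junction gene Cldn5 had 0.944, 0.797, 0.468 and 1.38 CPM, and the diaphragm gene Plvap had 1.28, 1.16, 0.908 and 1.57 CPM. Vwf, which encodes von Willebrand factor, had 5.87, 5.90, 6.02 and 10.8 CPM. Icam2, an adhesion molecule shared by endothelium and leukocytes, had 9.24, 8.45, 13.5 and 11.5 CPM. Ecscr, a regulator of endothelial chemotaxis, had 3.17, 2.71, 1.95 and 3.99 CPM. These 5 genes were thus detected in all 4 libraries, and the groups overlapped for Cldn5, Plvap and Ecscr. Vwf and Icam2 were higher in both propranolol libraries, and neither passed the test.

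Of the 18 further markers that were tested, none rose and 1 fell. Their median log2 fold change was −0.31, and its size varied between fits, over the markers each fit tested. Among the fits given here only omitting control replicate 1 gave a positive median, of 0.12. Omitting control replicate 2 gave −0.64. The median was −0.08 when propranolol replicate 1 was dropped and −0.55 when propranolol replicate 2 was dropped. It was −0.12 in DESeq2, −0.33 with the GC correction and −0.54 with raw library totals. Esm1, the tip cell product endocan, fell by 2.08 on the log2 scale, from 1.01 and 0.638 CPM to 0.220 and 0.131 CPM (adjusted p = 0.0439 in edgeR). That call rested on 15, 16, 8 and 2 fragments and was lost in edgeR when any 1 of the 4 libraries was left out (log2 fold change −2.57 to −1.71). Icam2 was at 0.51 ± 0.19 (adjusted p = 0.0581) and Cd93 at −0.06 ± 0.10 (adjusted p = 0.655). At an unadjusted p below 0.05 there were 2 of the 18, and DESeq2, which gave no adjusted p for Esm1, called none. With either propranolol library left out, 1 of these markers rose and none fell.

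Lymphatic endothelial genes gave no call among 3 tested of 7, in edgeR and in DESeq2, and none had an unadjusted p below 0.05. Pdpn, a glycoprotein also made by macrophages and fibroblasts, had 55.8 and 40.1 CPM in control TAMs against 62.3 and 45.0 CPM in propranolol TAMs. The hyaluronan receptor gene Lyve1 had 18.3, 11.2, 13.6 and 10.7 CPM, and Flt4, which encodes VEGFR3, had 1.35, 1.47, 0.935 and 1.9 CPM. All 3 overlapped between groups. The other 4, among them Prox1, the factor that sets lymphatic identity, were below 1 CPM in every library.

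Of 10 genes of VEGF and angiopoietin ligands and coreceptors 9 were tested, none rose and 1 fell. The GC correction gave 1 that rose, Nrp1, and none that fell. Vegfa had 152 and 173 CPM in control TAMs against 126 and 179 CPM in propranolol TAMs, with a log2 fold change of −0.10 ± 0.15 (adjusted p = 0.641 in edgeR). The semaphorin and VEGF coreceptor genes Nrp1 and Nrp2 had log2 fold changes of −0.01 ± 0.10 and 0.21 ± 0.10, and neither passed, although Nrp1 was at 0.65 after the GC correction (adjusted p = 0.00161 in edgeR). Angpt1, the activating ligand of TIE2, fell by 3.41 on the log2 scale (adjusted p = 0.00793 in edgeR), from 1.96 and 0.718 CPM to 0.110 and 0.131 CPM. That call was lost without control replicate 1 (−2.50, adjusted p = 0.178, the highest over its alternatives, with a lowest of 0.000547) and with the GC correction (−2.50, adjusted p = 0.055).

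Among 13 partners of endoglin in TGF-beta signalling, 10 were tested, 1 rose and 2 fell. Id1, an inhibitor of differentiation that BMP signals induce, rose from 4.65 and 3.51 CPM to 9.08 and 10.4 CPM (log2 fold change 1.26 ± 0.25, adjusted p = 0.00296 in edgeR). The type I receptor gene Tgfbr1 went from 394 and 390 CPM to 184 and 200 CPM (−1.03 ± 0.10) and the BMP type II receptor gene Bmpr2 from 87.5 and 77.3 CPM to 42.4 and 43.2 CPM (−0.94 ± 0.11), both called. Under the GC correction Tgfbr1 was at −0.27 and Bmpr2 at −0.19 and neither was called, whereas Id1 was still called at 0.98. The ligand gene Tgfb1 had 364, 377, 489 and 481 CPM (0.39 ± 0.09, adjusted p = 0.0067 in edgeR), which is under the fold threshold, and Tgfbr2 was at 0.09 ± 0.09. Without control replicate 2, 1 of these partners rose and 4 fell, and without propranolol replicate 2, 2 rose and 3 fell.

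Transcription factors of the endothelium split evenly. Of 14 genes 13 were tested, 3 rose and 3 fell. Lyl1 (0.86 ± 0.10) and Tal1 (1.11 ± 0.35), related factors of blood and vessel formation, rose, from 85.8 and 82.6 CPM to 145 and 161 CPM for Lyl1 and from 1.75 and 3.35 CPM to 5.39 and 5.89 CPM for Tal1. Ets1, an ETS factor also expressed by lymphocytes, fell from 84.6 and 83.8 CPM to 41.4 and 33.9 CPM (−1.15 ± 0.12). Gata2, of progenitors, mast cells and endothelium, fell by 1.58 ± 0.48 and Nr2f2, the venous factor COUP-TFII that fibroblasts also express, fell by 1.73 ± 0.55, both from levels under 4 CPM. Without control replicate 1, 2 of the 13 rose and 1 fell, and the calls of Tal1 (0.80), Gata2 (−1.27) and Nr2f2 (−1.05) were lost. Gata2 was also not called when either propranolol library was omitted or in DESeq2 (log2 fold changes −1.59 to −1.53), nor Nr2f2 without propranolol replicate 2 (−1.52), in limma-voom (−1.48) or with the GC correction (−1.37). After the GC correction 1 rose and 2 fell, and with raw library totals 1 rose and 4 fell. Tal1 was called in neither of these fits (0.92 and 0.87). Lmo2 and Klf2, at 0.06 ± 0.10 and 0.38 ± 0.18, did not pass.

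Notch genes of the vasculature were the one endothelial list that was called in a single direction more than once. Of 8 genes 6 were tested, 3 rose and none fell, where 12.2% of all tested genes rose and 15.6% fell. Their median log2 fold change was 0.68, but 0.30 when propranolol replicate 2 was dropped, 0.37 when control replicate 2 was, and 1.04 when propranolol replicate 1 was. The receptor genes Notch1 and Notch4 rose by 0.90 ± 0.13 and 1.13 ± 0.17 and the ligand gene Jag2 by 1.12 ± 0.17. Notch1 had 122 and 147 CPM in control TAMs against 226 and 276 CPM in propranolol TAMs. It supplied most of the sum of the list, which was 176, 205, 309 and 370 CPM. Which cells carried the Notch transcripts was not tested. Notch4, a receptor chiefly of endothelium, had 9.10 and 9.45 CPM against 19.5 and 21.3 CPM. Jag1 was at 0.30 ± 0.12 (adjusted p = 0.0688 in edgeR), and Hey2, a target gene of Notch in arteries, had no fragment in any library. The count was also 3 with each library left out in turn. Under the GC correction 2 rose (Notch1 was at 0.56), and with raw library totals 3 rose and 1 fell.

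The sorted cell type was then checked against its markers. The 13 macrophage genes summed to 22764 and 22000 CPM in control TAMs against 28814 and 26356 CPM in propranolol TAMs, none was at 0, and 3 rose and none fell. Without propranolol replicate 2, 5 rose, and with the GC correction or raw library totals 1 rose. The complement genes C1qa and C1qb had log2 fold changes of −0.18 ± 0.08 and 0.51 ± 0.08, and Lyz2 had 0.28 ± 0.11, none past the threshold. Of the sort genes, Adgre1, which encodes F4/80, had 975, 1008, 1151 and 1100 CPM and Itgam, which encodes CD11b, had 359, 352, 369 and 313 CPM. Neither passed the test (0.18 ± 0.09 and −0.06 ± 0.10). Ptprc, which encodes CD45, fell from 754 and 780 CPM to 479 and 442 CPM (−0.74 ± 0.09), but with the GC correction it was at 0.20.

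The list of 7 genes of perivascular, TIE2-expressing macrophages includes Tek itself. Of the 6 tested, 2 rose and none fell. The scavenger receptor gene Stab1, which sinusoidal endothelium also expresses, had 2650 and 2889 CPM in control TAMs against 6322 and 7970 CPM in propranolol TAMs (1.37 ± 0.11, adjusted p = 0.0001 in edgeR). Mrc1, the mannose receptor gene, was at 0.33 ± 0.10 (adjusted p = 0.0224), under the fold threshold, and Msr1 at 0.03 ± 0.13. With the GC correction 5 of these genes rose. Tek was the only one of the 7 below 1 CPM in every library.

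Cells that accompany vessels or carry the same genes were examined in the same way. Pericyte and smooth muscle genes summed to 129 and 60.4 CPM in control TAMs against 65.8 and 60.4 CPM in propranolol TAMs, and 2 of the 12 tested fell. Rgs5, the pericyte regulator of G protein signalling, had 28.1 and 9.61 CPM against 3.77 and 1.51 CPM (−2.71 ± 0.50, adjusted p = 0.00193 in edgeR). The control libraries were again the higher ones, and control replicate 1 the highest. Acta2 and Pdgfrb were at −0.13 ± 0.25 and −0.77 ± 0.31 and did not pass. Without control replicate 1, 1 pericyte gene rose and 1 fell, whereas 5 fell without control replicate 2 and 4 fell without propranolol replicate 1.

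Platelets carry Pecam1, and genes of the megakaryocyte lineage summed to 5.06, 4.74, 3.11 and 6.68 CPM. Itga2b, which encodes platelet integrin alpha IIb, was the most abundant at 2.23, 2.03, 1.24 and 1.77 CPM, 8 of the 10 genes were below 1 CPM in every library, and Gp1bb was at 0, although 92.9% of its exonic bases are shared with other genes. None of the 3 tested, Treml1 (0.67 ± 0.63), Itga2b (−0.52 ± 0.44) and Gp1ba (0.13 ± 0.70), was called by edgeR or DESeq2 or had an unadjusted p below 0.05.

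Mast cells and progenitors carry Cd34. Of 10 genes 4 were tested, Kit fell (8.23 and 8.57 CPM against 3.30 and 4.06 CPM, −1.21 ± 0.26) and Hdc, the histidine decarboxylase gene, rose (2.14 ± 0.15). The mast cell genes Ms4a2 and Fcer1a were at 0 in all 4 libraries, and the proteases Cpa3, Mcpt4, Cma1 and Tpsb2 were below 1 CPM. The list summed to 262, 268, 369 and 288 CPM, mostly Ly6a, the stem cell antigen 1 gene (230, 236, 292 and 185 CPM).

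Lymphocyte and granulocyte genes differed between the groups in these libraries. All 10 genes of T and NK cells fell, from sums of 268 and 309 CPM to 122 and 59.3 CPM, with Cd8a the most abundant at 71.0, 86.8, 29.4 and 13.4 CPM and none at 0. The log2 fold changes were −1.84 ± 0.27 for Cd8a, −1.15 ± 0.24 for Trac, the T cell receptor alpha constant gene, and −1.22 ± 0.24 for Prf1, the perforin gene. Of 6 tested neutrophil genes 4 rose and none fell, and the 9 genes of that list, none at 0, summed to 148 and 181 CPM against 309 and 325 CPM, with Csf3r, the G-CSF receptor gene, the most abundant at 97.0, 130, 154 and 180 CPM. S100a9 and S100a8, the calprotectin subunit genes, rose by 2.04 ± 0.12 and 1.33 ± 0.16, and Csf3r was at 0.56 ± 0.14. Of 8 dendritic cell genes 3 fell and none rose. Cd209a fell by 1.02 ± 0.33, a call lost when control replicate 1 (−0.75) or propranolol replicate 2 (−0.81) was omitted, in DESeq2 (−1.01) and with the GC correction (−0.59). Batf3 (0.07 ± 0.19) and Ccr7 (−0.19 ± 0.23) did not pass. Of 2 tested B cell genes Cd79b rose and Ms4a1 fell (a call lost when any 1 library was left out). Neither was called with the GC correction, and Cd79b was not called with raw library totals (0.54) either. No erythroid gene of 5 tested was called by edgeR or DESeq2, where 1 had an unadjusted p below 0.05. The globin genes Hbb-bs, Hba-a1 and Hbb-bt were at 0.30 ± 0.22, 0.54 ± 0.21 and 0.31 ± 0.34, and 2 erythroid genes rose when control replicate 1 was omitted. The part of these cells in the values of the members was not tested.

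**Figure D4:**
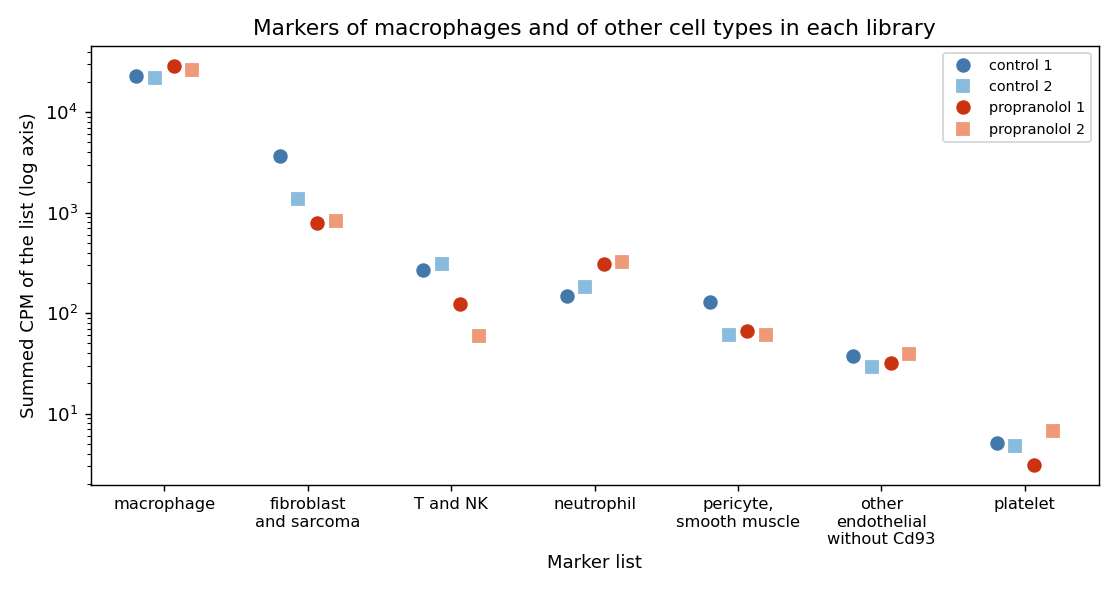
Summed CPM (log axis) of 7 marker lists in each library, with points for control 1 and 2 and propranolol 1 and 2. The macrophage list lies between 22000 and 28814 CPM in every library, the fibroblast and sarcoma list is highest in control 1 at 3625 CPM, and the endothelial list without Cd93 stays between 29.4 and 39.4 CPM.

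The genes nearest to the mean profile of the 7 tested members across the 4 libraries were sought. The distance was taken between log2 CPM values centred on their mean. The mean profile was nearly flat, at 0.01 and −0.20 in control TAMs against 0.19 and 0.00 in propranolol TAMs. It combines members with log2 fold changes of both signs, from −1.19 to 1.01, so genes near it need not resemble any single member. The nearest genes were Cdca3 (distance 0.0163), Nectin1 (0.0168), Rab11a (0.0197), Ubxn1 (0.0275) and 9130221H12Rik (0.0393). None of the 5 passed the test, with log2 fold changes from 0.18 for Ubxn1 to 0.23 for 9130221H12Rik. No gene of the endothelial lists was among them.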

How the data were processed

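TAM libraries were poly(A)-selected from 400 ng RNA with RIN above 7.5. The deposited values are raw counts of fragments per gene, one column per library. Per the submitters' notes the authors aligned reads to mm10 with STAR 2.7.1a, kept MAPQ above 30 with SAMtools 1.9, and counted exons with featureCounts 1.6.4; the GENCODE release and strand setting are not given in the sources used here. GENCODE M21 on GRCm38 gave symbols for 54079 of the 54146 genes.

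Genes passing filterByExpr (minimum count 10; 14688 genes) were fitted with edgeR 4.0.16 quasi-likelihood and TMM in R 4.3.3. A gene rose or fell at a Benjamini-Hochberg adjusted p below 0.05 and more than 1.5-fold. Alternatives were DESeq2 1.42.0 (Wald test, and its size factors), limma-voom 3.58.1, no filter, other fold thresholds, a replicate block, a GC spline (5 df), leaving out each library, and raw library totals, the last chosen after seeing the data. CPM used TMM-scaled totals and TPM used union exon length, with the longest transcript as an alternative. Intervals are exact Poisson at 95% and, like the floor of 3 counts, cover counting error only. Total counts ran from 13798249 to 39818103. Replicates differed beyond sampling noise (chi-square per degree of freedom 11.8 and 15.1). The code was tested on simulated data. Members and gene lists were chosen with earlier results of these data known. Named were the 9 members, the 3 tested genes with the highest TPM in each list, up to 5 called genes in each vascular list, and 5 genes of like profile. Cldn5, Plvap, Vwf, Clec14a, Hey2, Prox1, Nos3, Gp1bb and the markers at 0 or below 1 CPM were named after their values were seen.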

Additional observations from a re-analysis of the deposited data

How the results depend on the processing

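Over the 14688 tested genes, 4084 were called (1798 higher, 2286 lower). Raw library totals gave 4106 (609 higher, 3497 lower), the GC correction 1851 (1121 higher, 730 lower), the GC correction with the replicate block 2120 (1180 higher, 940 lower), no fold threshold 6204 and a log2 fold change above 1.5 only 728. Leaving out 1 library gave 3615 to 4329. The median log2 fold change of all genes moved by 0.11 with the GC correction and by −0.23 with raw totals. Of the members, 2 were called. DESeq2 called 1, raw totals 1, the GC correction 0 and a log2 fold change above 1.5 called 0, whereas the GC correction with the block called 2, Cd34 (−0.67, adjusted p = 0.0492 in edgeR) and Kdr (0.67, adjusted p = 0.0489). Leaving out 1 library gave 2 to 3, but not the same genes, since Cd34 was lost without control replicate 1 and Cdh5 when any of the other 3 was left out. The cause was not tested. The log2 ratio of the summed further endothelial markers was −0.05, was −0.28 with raw totals, and ran from −0.15 to 0.05 with 1 library left out. Ptprc reversed to 0.20 with the GC correction, and also to 0.20 with the block added.

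Replicate numbers share only a number: the deviations correlated at 0.17 across 14688 genes, over 2 pairs. The replicate block called 4362 genes and 3 members, with Kdr passing at 0.62 (adjusted p = 0.0489 in edgeR). Tek, with 29 fragments in all, and Emcn, with 31, were under the count minimum, and neither was called in the edgeR alternatives that admitted them.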
